A study of Mus musculus with 12 samples.

Results

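The genes described here are 33 genes of sterol and fatty acid synthesis together with Insig1 and its partners, in the mouse submandibular gland. They were chosen by array symbol: 24 belong to the sterol side (regulators, the mevalonate steps, the steps from squalene to cholesterol, and 1 transport protein) and 9 to the fatty acid side. Total RNA was measured on 12 Illumina bead arrays, 6 of C57BL6J mice aged 50 weeks and 6 of C57BL6J mice aged 8 weeks. The labels give strain, tissue and age only, with no treatment or modified allele in either group. Sex, feeding state and hour of dissection are not stated there. With 2 ages, growth to full adulthood and later ageing cannot be told apart, and the labels do not say whether every array came from its own animal, so the p-values rest on array-to-array spread that could be partly technical. Of the 33 genes, 30 had a probe carrying a single symbol, and 27 of those passed the filter, a detection p-value under 0.05 on at least 6 of the 12 arrays, among 9379 genes tested in all. Values are background-corrected, quantile-normalised log2 intensities of 1 probe per gene, so a level is compared between arrays and not between genes.

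Cells make cholesterol from acetyl-CoA through mevalonate, farnesyl diphosphate, squalene and lanosterol, and the genes for these enzymes are switched on together by the transcription factor SREBP-2, encoded by Srebf2. SREBP proteins are made in the endoplasmic reticulum membrane and are escorted by SCAP to the Golgi for cleavage. When sterols are plentiful, INSIG-1 and INSIG-2 hold SCAP in the endoplasmic reticulum, and Insig1 is itself an SREBP target gene. The SREBP-1 form, from Srebf1, acts more on fatty acid synthesis and desaturation. The submandibular gland of the mouse combines acinar secretory cells with large granular ducts, and its secretory membranes use cholesterol, fatty acids and isoprenoids.

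The stretch just upstream of the transcription start is printed for 4 genes on which the results below turn: Insig1, the sterol enzymes Cyp51 and Msmo1, and the fatty acid elongase Elovl6. The sequences are RefSeq's for GRCm38.p6, 250 bases each, read 5′ to 3′ on the strand of the gene: Insig1 at chr5:28071162-28071411 (+), Cyp51 at chr5:4104698-4104947 (-), Msmo1 at chr8:64733579-64733828 (-) and Elovl6 at chr3:129532136-129532385 (+). Capitals mark the sterol regulatory element core TCACNCCAC, the E-box CACGTG and the CCAAT box, searched on both strands.
Insig1: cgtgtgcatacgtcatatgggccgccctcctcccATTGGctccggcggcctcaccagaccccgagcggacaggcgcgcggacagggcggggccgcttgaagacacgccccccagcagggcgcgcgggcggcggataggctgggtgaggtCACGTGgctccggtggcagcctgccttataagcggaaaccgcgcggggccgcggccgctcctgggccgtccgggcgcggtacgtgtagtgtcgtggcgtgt
Cyp51: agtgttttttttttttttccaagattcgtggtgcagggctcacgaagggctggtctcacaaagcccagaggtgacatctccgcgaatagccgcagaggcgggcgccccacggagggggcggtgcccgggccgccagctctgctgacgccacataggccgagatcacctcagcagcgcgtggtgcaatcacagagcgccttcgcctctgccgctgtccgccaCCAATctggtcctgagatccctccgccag
Msmo1: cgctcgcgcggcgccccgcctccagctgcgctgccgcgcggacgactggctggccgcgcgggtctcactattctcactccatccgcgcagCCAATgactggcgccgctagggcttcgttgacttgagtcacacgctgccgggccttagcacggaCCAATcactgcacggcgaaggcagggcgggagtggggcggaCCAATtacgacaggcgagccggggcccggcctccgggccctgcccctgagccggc
Elovl6: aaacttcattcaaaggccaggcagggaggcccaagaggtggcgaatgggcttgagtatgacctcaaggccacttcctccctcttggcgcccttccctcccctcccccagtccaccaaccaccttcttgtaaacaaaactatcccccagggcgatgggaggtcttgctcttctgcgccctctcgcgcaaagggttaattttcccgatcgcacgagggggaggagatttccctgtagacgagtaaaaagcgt
The Insig1 stretch holds 1 E-box and 1 CCAAT box, that of Cyp51 holds 1 CCAAT box, that of Msmo1 holds 3, and that of Elovl6 holds none of these letters.

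Promoter sequence was available for 26 of the 33 genes, as 34 promoters. CCAAT, the core that the factor NF-Y binds beside SREBP in many sterol genes, was found in 21 of the 34 (61.8%), against 33.9% of all 32851 mouse promoters of the same length. The E-box letters were in 6 (17.6%, against 6.02%), namely those of Insig1, Scap, Dhcr7, Hsd17b7, Sc5d and Elovl5. The sterol regulatory element core was in 1, that of Hmgcs1, 2.94% against 1.05%, and its longer form from the LDL receptor gene, was in 0 of 34, against 0.0731% of all. The GC box GGGCGG, the core of an Sp1 site and not marked by capitals, was in 24 (70.6%, against 32.7%). The longer sterol element contains the shorter core, while the other motifs were searched apart. These are matches of letters only.

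The arrays had a mean intensity over all probes of 223 to 302 at 50 weeks and 207 to 324 at 8 weeks, and 15318 to 18110 probes were detected on each. Array 6 of the 50-week group stood apart, with a mean correlation with its own group over the tested genes of 0.949, against 0.975 to 0.983 for the other 11 arrays. Of the listed cell markers, all 8 measured acinar genes and 4 granular duct genes were detected at both ages. Of the acinar markers 1 rose and 0 fell, and of the granular duct markers 0 rose and 1 fell. Whether these markers are particular to this gland was not tested. Within an age the acinar gene Amy1 ranged widely, from 7.73 to 13.80 at 50 weeks and from 8.14 to 14.10 at 8 weeks. Bpifa2 ranged from 13.11 to 14.92 and from 12.52 to 15.23, and the other acinar markers varied less. Whether the tissue on the arrays differed in makeup was not tested. By limma with Benjamini-Hochberg adjustment over all genes, 1171 of 9379 genes changed with age, which is 12.5%: 596 were higher at 50 weeks (6.35%) and 575 lower (6.13%). Macrophage markers were higher in 6 of 7 measured genes, with a mean of 7.67 to 8.31 on the 50-week arrays and 7.02 to 7.98 on the 8-week arrays. Of 10 measured genes of the circadian clock, 1 rose, 4 fell and 5 did not pass. The log2 differences were 0.81 for Arntl, -1.70 for Dbp, -0.92 for Tef, -0.69 for Per1 and -0.51 for Nr1d2. The hour of dissection is not stated, so a difference in hour between the groups cannot be told apart from age. In bulk RNA, fewer cells of a type and less RNA per cell cannot be told apart.

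At 50 weeks Insig1 was 2.55-fold lower, Elovl6 was 1.57-fold lower and Scd1 was 1.60-fold higher, and the other 24 measured genes of the set did not pass the test. So 1 of 27 rose, against the 6.35% of all genes that did, and 2 of 27 fell, against 6.13%. The signs were less even: 18 of the 27 differences were below 0, against 53.5% of all genes, and the median difference was -0.20, against -0.02 for all genes. On the sterol side 15 of 19 were below 0 with a median of -0.23. On the fatty acid side 3 of 8 were below 0 with a median of 0.09. Insig1 was the 1 member whose arrays did not overlap between the ages, lower at 50 weeks, a pattern seen in that direction in 3.11% of all genes, and 0 members did so in the upward direction, against 3.34%.

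**Figure D1:**
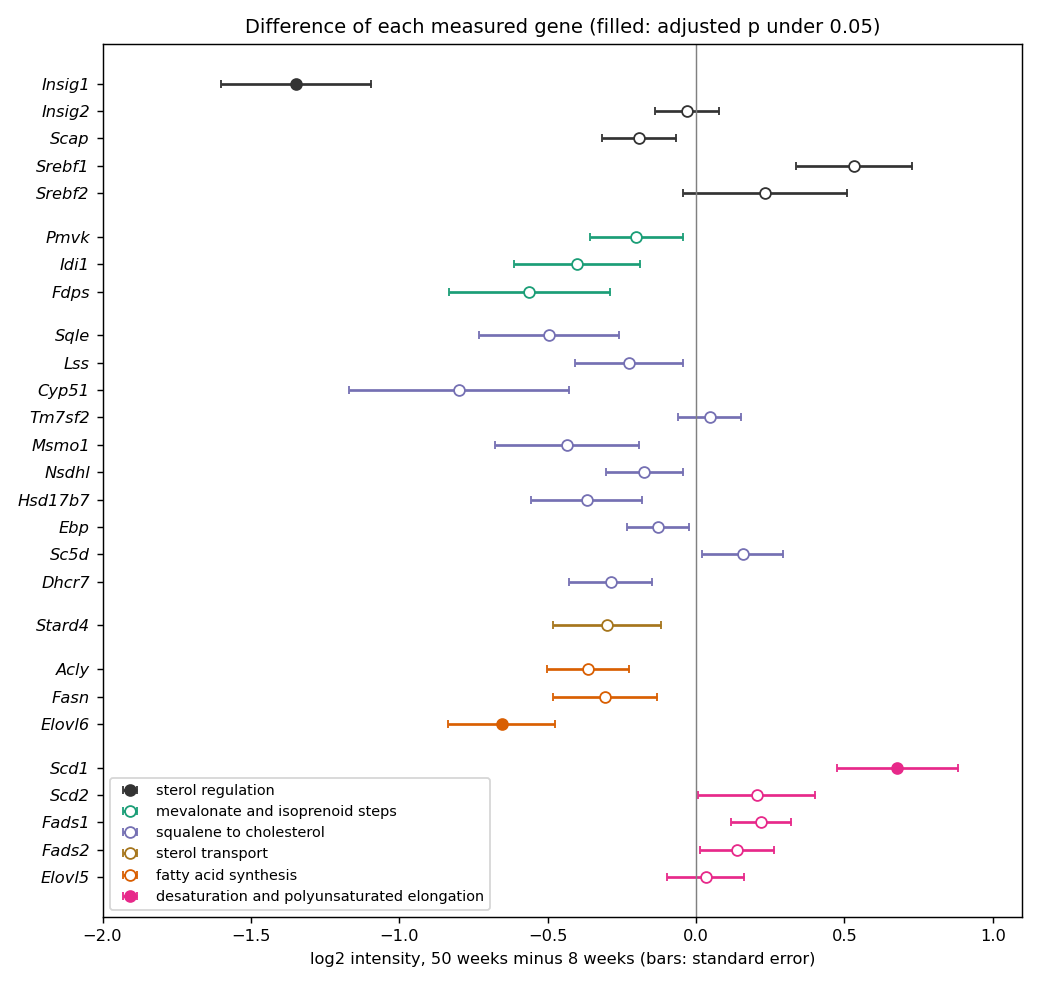
Difference in log2 intensity, 50 weeks minus 8 weeks, for the 27 measured genes, grouped by role, with the standard error of the fit as bars and filled points for an adjusted p under 0.05. The filled points are Insig1 at -1.35, Elovl6 at -0.65 and Scd1 at 0.68, all 3 mevalonate genes lie left of 0 and all 5 desaturation and polyunsaturated elongation genes lie right of it.

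Insig1, the retention protein, had a lowest, median and highest log2 intensity of 8.69, 9.10 and 9.18 on the 50-week arrays, against 9.52, 10.55 and 11.17 on the 8-week arrays. All 6 arrays at 50 weeks lay below all 6 at 8 weeks, and the 50-week arrays were close together. The means were 9.04 ± 0.19 at 50 weeks and 10.39 ± 0.69 at 8 weeks (SD, n = 6 each), a difference of -1.35 ± 0.25 (SE, limma adjusted p = 0.00391). This fall was known from earlier results of these arrays. The array holds 4 Insig1 probes, and the other 2 that were detected gave -1.48 ± 0.44 and -1.41 ± 0.40, each detected on 5 of 6 arrays at 50 weeks and 6 of 6 at 8 weeks, with limma p-values of 0.0494 and 0.0396 adjusted over the probes. The fourth probe was detected on 0 of the 12 arrays.

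Insig2, the second retention protein, had 9.47, 9.72 and 9.84 at 50 weeks, against 9.43, 9.72 and 10.07 at 8 weeks. Its arrays overlapped over nearly their whole range, with a difference of -0.03 ± 0.11 (limma adjusted p = 0.896), and its second detected probe gave -0.01. Scap, the escort, had 7.11, 7.18 and 7.83 at 50 weeks, against 7.15, 7.51 and 7.61 at 8 weeks, a difference of -0.19 ± 0.13 (limma adjusted p = 0.356). The highest Scap value belonged to 50-week array 6, and the other 5 arrays of that age lay at 7.11 to 7.20. Without array 6 the difference was -0.30 (adjusted p = 0.0192).

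The transcription factor genes did not pass the test. Srebf1 had 5.97, 6.78 and 6.98 at 50 weeks, against 5.64, 6.11 and 6.63 at 8 weeks, a difference of 0.53 ± 0.20 (limma adjusted p = 0.0909). Here 4 of the 6 arrays at 50 weeks lay above every array at 8 weeks, array 6 was the lowest of its group, and without it the difference was 0.67 with an adjusted p of 0.0131. Srebf2 had 5.93, 6.70 and 7.11 at 50 weeks, against 5.75, 6.15 and 7.45 at 8 weeks, a difference of 0.23 ± 0.28 (limma adjusted p = 0.644). Its second probe gave -0.16, so the direction for Srebf2 differed between probes.

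Of 7 genes of the mevalonate and isoprenoid steps, 3 were measured, and 0 passed the test. Mvk (mevalonate kinase) was detected on 0 of 12 arrays and Mvd (mevalonate decarboxylase) on 3, below the filter, and Acat2 and Hmgcs1 had no probe with a single symbol. Fdps, which makes farnesyl diphosphate, the branch point to squalene and to protein prenylation, had 8.52, 8.62 and 8.75 at 50 weeks, against 8.27, 9.34 and 9.97 at 8 weeks. The 50-week arrays sat inside the 8-week range, with 8-week arrays 2 and 6 below them and the other 4 above. The difference was -0.56 ± 0.27 (limma adjusted p = 0.199). Idi1, the isomerase before it, differed by -0.40 ± 0.21 (limma adjusted p = 0.245), and Pmvk, the phosphomevalonate kinase, by -0.20 ± 0.16 (limma adjusted p = 0.446).

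**Figure D2:**
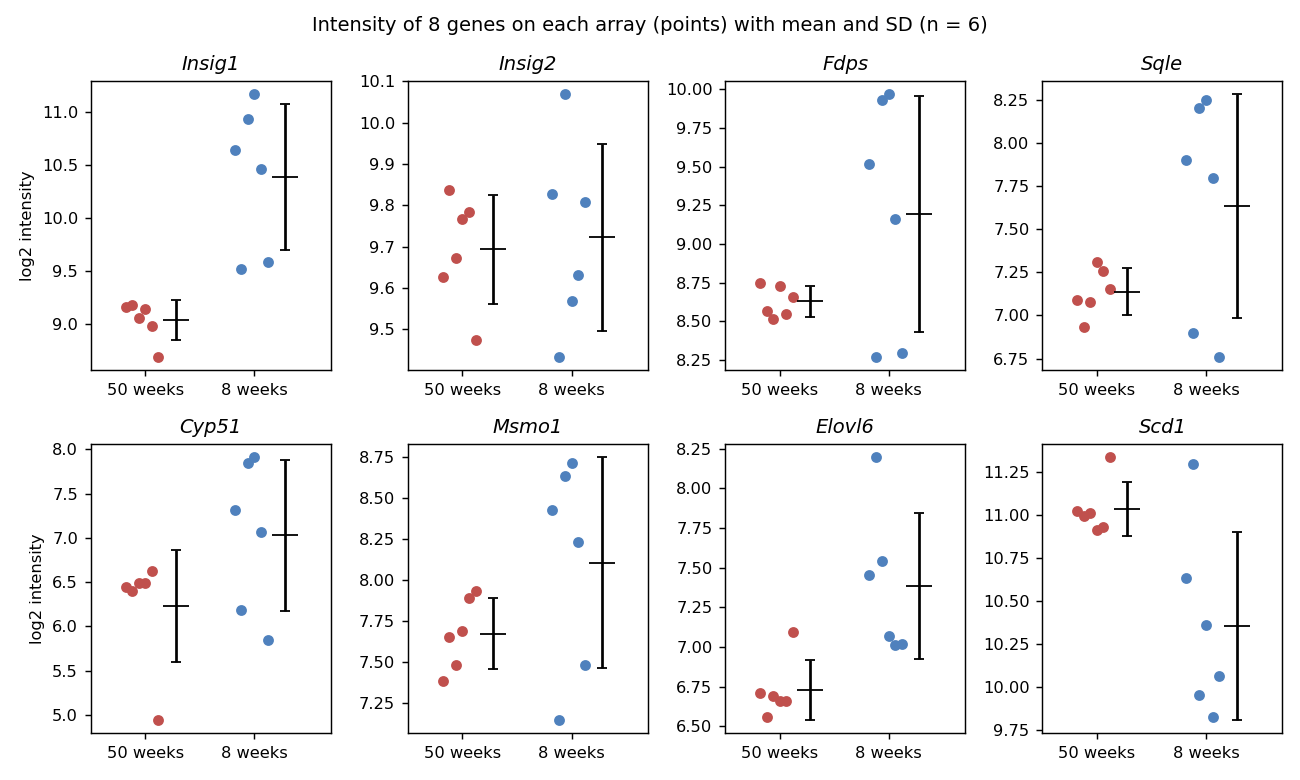
Log2 intensity of 8 genes on each array (points), with the mean and SD of the 6 arrays of each age beside them. The 50-week arrays of Insig1 all lie below the 8-week arrays, and those of Fdps lie at 8.52 to 8.75, inside the 8-week range of 8.27 to 9.97.

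Of the 11 genes from squalene to cholesterol, 10 were measured and 0 passed, with 8 of the 10 differences below 0. Fdft1, squalene synthase, had no probe with a single symbol. Sqle, the squalene epoxidase, had 6.94, 7.12 and 7.31 at 50 weeks, against 6.76, 7.85 and 8.25 at 8 weeks, and the 50-week arrays again sat within the 8-week range (difference -0.50 ± 0.24, limma adjusted p = 0.193). A second, dimmer Sqle probe, detected on 8 of 12 arrays, gave -0.03. Cyp51, the lanosterol demethylase, had 4.94, 6.46 and 6.62 at 50 weeks, against 5.85, 7.19 and 7.92 at 8 weeks. Its lowest value, on 50-week array 6, was not detected there, and the other 5 arrays of that age lay at 6.40 to 6.62, between 8-week arrays 2 and 6 below and the other 4 above. The difference was -0.80 ± 0.37 (limma adjusted p = 0.183). With arrays numbered alike treated as pairs, the limma adjusted p of Cyp51 was 0.0346. The labels do not say whether such arrays belong together. Msmo1, the methylsterol monooxygenase that acts after Cyp51, had 7.38, 7.67 and 7.93 at 50 weeks, against 7.15, 8.33 and 8.71 at 8 weeks. All 6 of its 50-week arrays were inside the 8-week range (difference -0.44 ± 0.24, limma adjusted p = 0.270), and without 8-week array 2 the difference was -0.63 (adjusted p = 0.0497). Leaving out any other single array gave Msmo1 no call.

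The remaining enzymes of this stretch had smaller differences. Hsd17b7, a reductase of sterol demethylation, differed by -0.37 ± 0.19, and Dhcr7, which reduces the last double bond on one route to cholesterol, by -0.29 ± 0.14, with limma adjusted p-values of 0.221 and 0.204. For Dhcr7, 3 of the 6 arrays at 50 weeks lay below every array at 8 weeks, and for Hsd17b7 it was 2 of 6. Lss, the lanosterol synthase, differed by -0.23 ± 0.18, with a second probe at -0.02, while the dehydrogenase gene Nsdhl differed by -0.17 ± 0.13 and the isomerase gene Ebp by -0.13 ± 0.10. The reductase gene Tm7sf2, at 0.05 ± 0.11, and the desaturase gene Sc5d, at 0.16 ± 0.14, lay above 0. Nsdhl and Tm7sf2 were close to the detection filter, on 6 of 12 and 8 of 12 arrays, with Mvd just outside at 3. Stard4, which carries cholesterol between membranes, differed by -0.30 ± 0.18 (limma adjusted p = 0.316).

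Averaged over its 19 measured genes, the sterol side had a mean log2 intensity of 6.81 to 6.97 on the 50-week arrays, against 6.68 to 7.50 on the 8-week arrays. The 8-week arrays lay on either side of the 50-week ones: arrays 2 and 6 were at 6.68 and 6.78, below every array at 50 weeks, and the other 4 were at 7.19 to 7.50, above every one. The mean difference was -0.26, and without any 1 array it ran from -0.35 to -0.19, but it was -0.13 with arrays scaled to the same median and -0.17 on the authors' values. Of the 13 measured enzymes, array 2 was among the lowest 2 of its group in 12 and array 6 in 8, whereas array 3 was among the highest 2 in 10 and array 4 in 9.

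**Figure D3:**
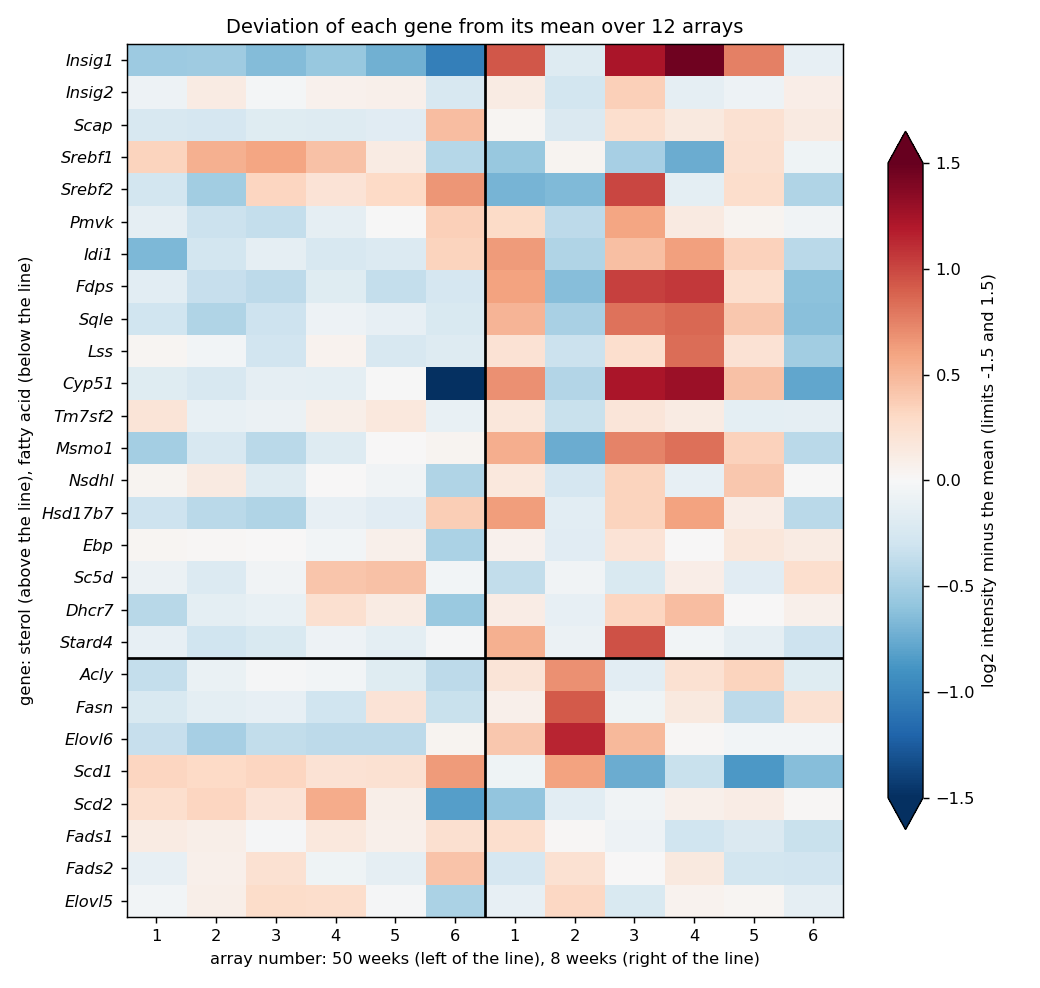
Log2 intensity of each of the 27 genes on each array minus the mean of that gene over the 12 arrays, with colours limited at -1.5 and 1.5 and the 50-week arrays left of the line. Insig1, Pmvk, Idi1, Fdps, Sqle, Lss, Cyp51, Msmo1 and Hsd17b7 lie above their means on 8-week arrays 1, 3, 4 and 5 and below them on arrays 2 and 6, while Acly, Fasn and Elovl6 are highest on 8-week array 2.

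The spread over arrays of one age was also larger at 8 weeks for many of these genes. The SD of Fdps was 0.0992 over the 50-week arrays, against 0.762 over the 8-week arrays, 7.68 times as large at 8 weeks, a ratio that 3 of the 9379 genes exceeded. For Sqle and Stard4 the 8-week SD was 4.78 times that at 50 weeks, exceeded by 33 and 34 genes, and for Insig1 3.71 times, exceeded by 102. Stard4 lay near background at 50 weeks, at 4.94 to 5.22, where the lowest detected signal of an array was 4.84 to 5.08. At 8 weeks Stard4 was detected on 5 of 6 arrays. For Scd1, Lss and Msmo1 the ratio was 3.52, 3.32 and 2.97. In 21 of the 27 genes (77.8%) the SD was larger at 8 weeks, against 40.5% of all genes, and the median ratio was 1.52, against 0.866. No test of these ratios was made. The values for all genes include 50-week array 6, whose mean correlation with its own group was 0.949, and they were not computed without it. How far the contrast with all genes rests on that array was therefore not tested.

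The ratios depended on scaling and on single arrays. With arrays scaled to the same median, the ratio was 2.76 for Fdps, 2.15 for Sqle and 1.68 for Insig1, and on the authors' values it was 5.20, 3.80 and 2.62. Median scaling gave 1.33 for Lss and 4.83 for Msmo1, and the authors' values gave 1.60 for Stard4, 5.10 for Msmo1 and 2.27 for Cyp51. Without 50-week array 6 it was 8.50 for Insig1, 11.0 for Scd1 and 10.0 for Cyp51, which had a ratio of 1.34 over all arrays (2.08 without background correction). Without 8-week array 2 it was 2.11 for Scd1. These other settings were chosen after the spread had been seen.

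**Figure D4:**
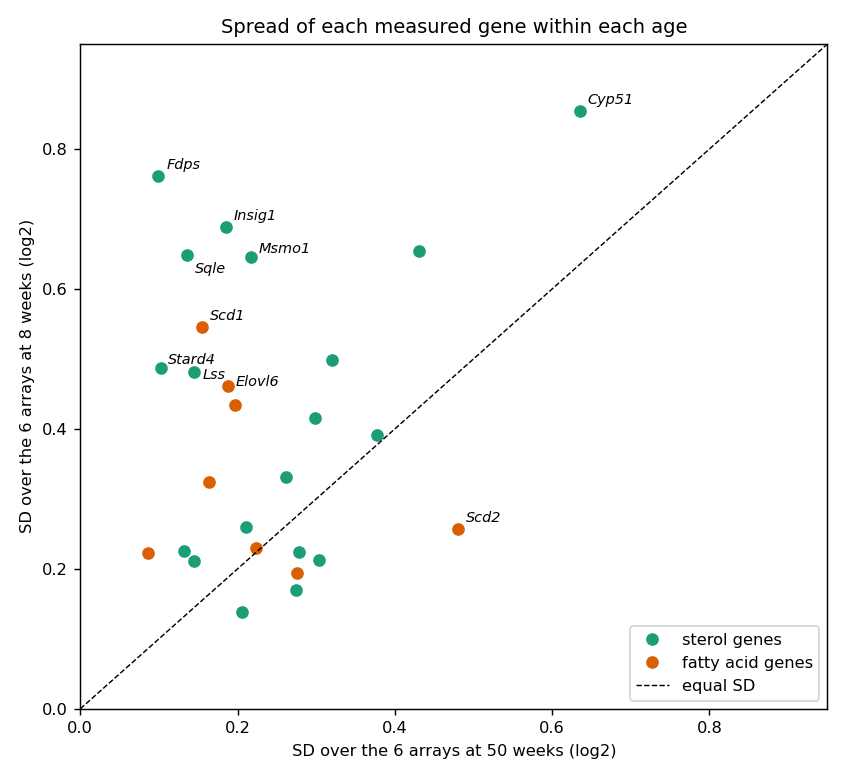
SD of log2 intensity over the 6 arrays at 8 weeks (vertical) against that over the 6 arrays at 50 weeks (horizontal) for the 27 genes, with a dashed line of equal SD. Of the 27 points, 21 lie above the line, with Fdps at 0.762 against 0.0992 farthest from it in ratio.

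Within the 8-week group, Fdps, Sqle, Cyp51 and Msmo1 followed Insig1 from array to array. On 8-week arrays 1 to 6 Insig1 was at 10.64, 9.52, 10.93, 11.17, 10.47 and 9.59. On the same arrays Fdps was at 9.52, 8.27, 9.93, 9.97, 9.16 and 8.30. Both genes were lowest on arrays 2 and 6 and highest on arrays 3 and 4. Correlations of Insig1 with the other 26 genes were computed within each age (n = 6), 52 pairs in all, with exact 2-sided permutation p-values adjusted over the 52, of which 0.00139 is the smallest the design can give.

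At 8 weeks, 4 pairs passed. For Fdps Pearson's r was 0.99 (exact permutation p = 0.00139, adjusted 0.0241) and Spearman's rho was 1 (exact permutation p = 0.00278, adjusted 0.0481). For Msmo1 r was 0.98, with the same p-values and the same rho. For Sqle r was 0.99 (exact permutation p = 0.00278, adjusted 0.0361) and rho 0.94 (exact permutation p = 0.0167, adjusted 0.108). For Cyp51 r was 0.98 (exact permutation p = 0.00417, adjusted 0.0433) and rho 0.94 with the p-values of Sqle. Arrays 2 and 6, which lay apart below the rest, are the farthest from the median of Insig1. Over the other 4 arrays, too few for a test, r was 0.95 for Fdps, 0.98 for Msmo1, 0.97 for Sqle and 0.97 for Cyp51. Idi1 and Lss, at r of 0.95 and 0.94, had adjusted exact permutation p-values of 0.0993 and 0.0722, and without arrays 2 and 6 their r was 0.50 and 0.82.

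Of the 26 genes, 6 had r above 0.9 with Insig1 at 8 weeks (23.1%), against 118 of the 9378 other genes tested (1.26%). The median r was 0.81 for the sterol genes, -0.31 for the fatty acid genes and 0.006 for all genes. At 50 weeks 3 of the 26 had r above 0.9 (11.5%), against 581 genes (6.20%), and the median r was 0.03 for the members and -0.40 for all genes. Insig1 was lowest on 50-week array 6, which stood apart, and the share and median of all genes were not computed without it. The 3 were Srebf1, Nsdhl and Scd2, with r of -0.55, 0.99 and 0.33 without arrays 5 and 6. Nsdhl was detected on 3 of 6 arrays at 50 weeks. Over all 6 arrays at 50 weeks, the 4 enzymes had r of 0.09 (Fdps), -0.71 (Msmo1), -0.25 (Sqle) and 0.87 (Cyp51), with adjusted exact permutation p-values of 0.977, 0.242, 0.713 and 0.321. The Cyp51 value rests on array 6, being -0.80 without arrays 5 and 6. Over the narrow 50-week range of Insig1, 1 pair passed, that with Scap (r = -0.95, exact permutation p = 0.00139, adjusted 0.0241, rho = -1), and r was -0.79 without arrays 5 and 6. Whether r differs between the ages was not tested. Among the 13 enzymes themselves the median r over 78 pairs was 0.14 at 50 weeks, with 47 pairs above 0, against 0.76 at 8 weeks, with 67 above 0.

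**Figure D5:**
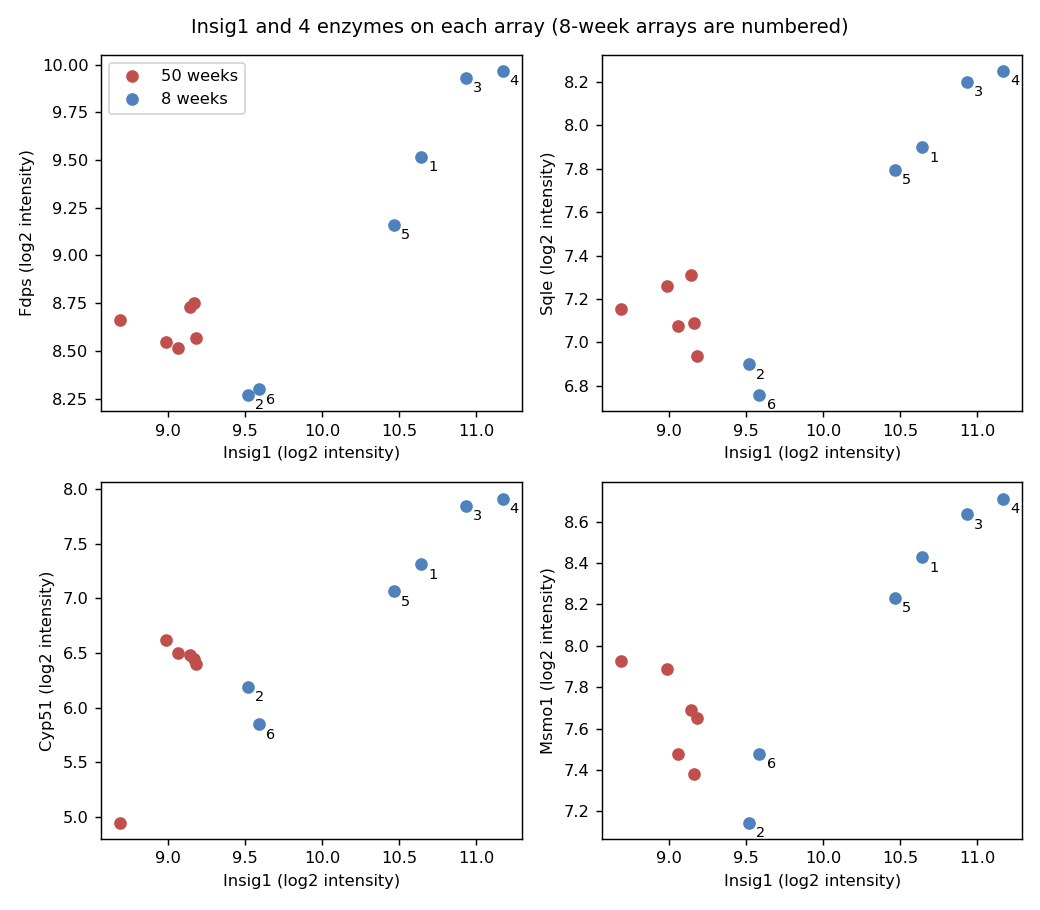
Log2 intensity of Fdps, Sqle, Cyp51 and Msmo1 (vertical) against that of Insig1 (horizontal) on each array, with the 8-week arrays numbered. The 8-week points rise along a line from arrays 2 and 6 to arrays 3 and 4, and the 50-week points lie left of them, at an Insig1 level of 8.69 to 9.18.

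On the fatty acid side, the 3 measured synthesis genes had differences below 0 and the 5 desaturation and polyunsaturated elongation genes had differences above 0. Elovl6, which lengthens palmitate to stearate, had 6.56, 6.68 and 7.10 at 50 weeks, against 7.01, 7.26 and 8.20 at 8 weeks. At 50 weeks 5 of 6 arrays lay below every array at 8 weeks, with array 6 inside the 8-week range. The difference was -0.65 ± 0.18 (limma adjusted p = 0.0305), and the adjusted p was 0.0582 to 0.0631 when 8-week array 1 or 3, or any of 50-week arrays 1 to 5, was left out. With arrays scaled to the same median the Elovl6 difference was -0.46 (adjusted p = 0.251). With arrays numbered alike treated as pairs, the limma adjusted p of Elovl6 was 0.0603. Acly, which makes cytosolic acetyl-CoA, had 10.95, 11.21 and 11.34 at 50 weeks, against 11.17, 11.56 and 12.03 at 8 weeks, with 3 of 6 arrays at 50 weeks below every array at 8 weeks (difference -0.36 ± 0.14, limma adjusted p = 0.101). Fasn, the fatty acid synthase, had a dim probe and differed by -0.31 ± 0.18 (limma adjusted p = 0.281), and Acaca, an acetyl-CoA carboxylase, was detected on 0 of 12 arrays.

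Scd1, the desaturase that makes oleate and palmitoleate, had 10.91, 11.00 and 11.34 at 50 weeks, against 9.83, 10.21 and 11.30 at 8 weeks. Array 2 alone of the 8-week group reached the 50-week values, and the other 5 lay at 9.83 to 10.63, below every array at 50 weeks. The difference was 0.68 ± 0.20 (limma adjusted p = 0.0437). The adjusted p was 0.0664 to 0.0928 when any of 8-week arrays 3 to 6 or 50-week arrays 1 to 5 was left out, and it was 0.00147 without 8-week array 2, with a difference of 0.87. With arrays scaled to the same median the Scd1 difference was 0.79 (adjusted p = 0.108). With arrays numbered alike treated as pairs, the limma adjusted p of Scd1 was 0.0548.

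The other desaturation genes did not pass. Scd2, a second stearoyl-CoA desaturase, had 7.46, 8.51 and 8.84 at 50 weeks, against 7.69, 8.26 and 8.39 at 8 weeks: 4 arrays at 50 weeks lay above every array at 8 weeks and array 6 lay below them all (difference 0.20 ± 0.20, limma adjusted p = 0.552, and 0.39 with 0.0380 without array 6). Fads1 and Fads2, the desaturases of polyunsaturated fatty acids, differed by 0.22 ± 0.10 and 0.14 ± 0.13 (limma adjusted p = 0.179 and 0.521). Elovl5, which elongates polyunsaturated fatty acids, differed by 0.03 ± 0.13 (limma adjusted p = 0.905).

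Adipocyte markers were highest on the 8-week array where several fatty acid genes were highest. Of 11 listed, 4 were measured and 0 passed the test, with a mean log2 intensity of 5.96 to 7.18 on the 50-week arrays and 6.17 to 9.91 on the 8-week arrays. That array was array 2, where Adipoq, the adiponectin gene, was at 10.56, and the same array was the highest of its group for Acly, Fasn, Elovl6 and Scd1. Plin1 and Retn were detected on 0 of 12 arrays and Fabp4 on 0 of 6 at 50 weeks and 1 of 6 at 8 weeks. Of the 4 measured markers, Adipoq and Pnpla2 were detected on 6 of 6 arrays at each age, but Cidec and Cidea on only 3 of 6. With the mean of the 4 markers as a covariate, the difference was -0.49 for Elovl6 (limma adjusted p = 0.0575), 0.94 for Scd1 (0.000168) and -1.43 for Insig1 (0.00421). The part of macrophage and clock genes in the results was not tested.

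Without both 8-week array 2 and 50-week array 6, each of which stood apart in some values, 8 members were lower at 50 weeks (14.8% of all genes were) and 2 were higher (12.1% of all genes were). The 8 were Insig1, Elovl6, Scap, Pmvk, Idi1, Fdps, Msmo1 and Hsd17b7, and the 2 were Scd1 and Srebf1. Array 2 was also one of the 8-week pair with low sterol genes, and array 6 of that pair remained in. Array 2 was among the lowest 2 of its group in 12 of the 13 measured enzymes, so leaving it out raises their 8-week means. The choice was made with earlier results known. In the check of gaps between arrays given at the end, each array set apart was 50-week array 6, not 8-week array 2. Leaving out only 8-week array 2, or only 50-week array 6, gave 3 lower members each time.

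Genes around these pathways were read from 6 further lists. Of 17 other sterol synthesis genes and INSIG partners, 8 were measured and 1 passed, a share equal to the 12.5% of all genes: Faf2, a factor in the extraction of INSIG-1 from the membrane, rose by 0.23 ± 0.06 (limma adjusted p = 0.0307). Its 6 arrays at 50 weeks, at 8.11 to 8.24, lay above all 6 at 8 weeks, at 7.85 to 8.02. The adjusted p of Faf2 was 0.0532 to 0.0659 without 8-week array 1, 2, 4 or 5 or 50-week array 1, 3, 4 or 5, 0.0726 with the adipocyte covariate, 0.0672 on the authors' values and 0.312 with arrays scaled to the same median. With arrays numbered alike treated as pairs, the limma adjusted p of Faf2 was 0.0985. The ubiquitin ligase gene Rnf139 differed by -0.30 ± 0.11, the membrane protein gene Pgrmc1 by -0.23 ± 0.10 and the extraction ATPase gene Vcp by 0.13 ± 0.08, with limma adjusted p-values of 0.103, 0.151 and 0.304, and that of Rnf139 was 0.0275 without 8-week array 5. No other omission of a single array gave Rnf139 a call. Of 10 genes on branches of the mevalonate pathway, 7 were measured and 0 passed, among them the prenyltransferase subunits Fnta (-0.14) and Fntb (0.17), the ubiquinone gene Coq2 (-0.11) and the tRNA modifier Trit1 (-0.18, or -0.26 with an adjusted p of 0.0143 without 50-week array 6).

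Of 20 genes of sterol uptake, storage and export, 10 were measured and 1 passed, near the 12.5% of all genes. Ch25h, which makes an oxysterol that blocks SREBP processing and is made largely by macrophages, was detected on 6 of 6 arrays at 50 weeks and 1 of 6 at 8 weeks. Its log2 intensity was 5.43 to 6.51 at 50 weeks and 4.67 to 5.09 at 8 weeks, at least 1.76-fold higher (limma adjusted p = 0.00161), with the lowest detected signal of each array as the floor. The size depended on the background step and the scaling. Against 1.00 (log2), the Ch25h difference was 0.31 without background correction (limma adjusted p = 0.00575) and 0.27 on the authors' values (0.0266). It was 0.76 with background-corrected arrays scaled to the same median (0.00209). The bound was computed for the main values only and does not carry over to these settings. The macrophage markers given above were higher at 50 weeks too, and their part in this result was not tested. The lipoprotein receptor gene Vldlr differed by -0.38 ± 0.14, the sterol carrier gene Osbp by -0.15 ± 0.11 and the oxysterol enzyme gene Cyp27a1 by 0.29 ± 0.19, and none of these 3 passed (limma adjusted p = 0.102, 0.420 and 0.357). Without 8-week array 2 that of Cyp27a1 was 0.0473, and no other omission of a single array gave it a call.

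Of 23 other genes of fatty acid synthesis, 17 were measured and 1 fell, near the 6.13% of all genes. Acacb, the acetyl-CoA carboxylase whose product restrains fatty acid entry into mitochondria, had 8.31, 8.47 and 8.98 at 50 weeks, against 8.87, 9.11 and 9.29 at 8 weeks, a difference of -0.56 ± 0.11 (limma adjusted p = 0.00553). The groups overlapped at the edge, and with arrays scaled to the same median the adjusted p of Acacb was 0.0819. The malic enzyme gene Me1 differed by -0.67 ± 0.30, the elongase gene Elovl7 by -0.33 ± 0.13 and the desaturase gene Fads6 by 0.31 ± 0.12, with limma adjusted p-values of 0.161, 0.104 and 0.108. That of Fads6 was 0.0398 without 50-week array 6, and that of Elovl7 was 0.00988 with the adipocyte covariate and 0.0486 without both 8-week array 2 and 50-week array 6. Of 14 genes of fatty acid activation and glycerolipid synthesis, 12 were measured and 0 passed: the acyl-CoA synthetase genes Acsl4 and Acsl5 differed by -0.42 and -0.22, the acyltransferase gene Agpat2 by -0.60 and the lipoprotein lipase gene Lpl by -0.88. Without 50-week array 6 the adjusted p was 0.0299 for Acsl4 and 0.0393 for Acsl5, and without 8-week array 5 it was 0.0312 for Acsl4.

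Of 14 genes of fatty acid oxidation, 10 were measured, 5 fell and 0 rose, against 6.13% of all genes that fell, and 9 of the 10 were below 0, against 53.5% of all genes. Ppargc1a, a coactivator of mitochondrial genes, had 6.12, 6.31 and 6.55 at 50 weeks, against 6.62, 7.25 and 7.45 at 8 weeks, a difference of -0.79 ± 0.15 (limma adjusted p = 0.00403). Cpt2, of the carnitine shuttle, fell by 0.40 (0.0120 adjusted), its partner Slc25a20 fell by 0.56 (0.0371) and Hadhb, of the trifunctional protein, fell by 0.49 (0.0242). The fifth was Acadm, the medium-chain dehydrogenase, named after its value was seen, which fell by 0.46 (0.0423). For all 5 genes the arrays of the ages did not overlap, as for 3.11% of all genes in that direction. Array 2, the 8-week array with the highest adipocyte markers, was the highest of its group for Cpt2, Slc25a20, Hadhb and Acadm, but not for Ppargc1a. With the adipocyte covariate the limma adjusted p of Acadm was 0.0590. For Acadm and Slc25a20 it was 0.0681 and 0.0632 on the authors' values, and 0.0712 and 0.0686 with no detection filter. With arrays scaled to the same median all 5 lost the call, with adjusted p-values of 0.172 for Ppargc1a, 0.453 for Cpt2, 0.377 for Slc25a20, 0.369 for Hadhb and 0.443 for Acadm. Leaving out 1 array also ended calls: Hadhb without 8-week array 1 or 50-week array 1 or 4 (0.0519 to 0.0578), Slc25a20 without 8-week array 1, 4 or 5 or 50-week array 1, 3, 4 or 5 (0.0507 to 0.0782), and Acadm without 8-week array 1, 3, 4 or 5 or any of 50-week arrays 1 to 5 (0.0513 to 0.0808).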

How the data were processed

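Total RNA of mouse submandibular gland was hybridised to Illumina bead arrays. The deposited table holds linear probe intensity values for 45281 probes on 12 arrays, and, per the file headers, a detection p-value beside each. In the deposited series matrix the authors gave the same intensity values multiplied by 1 factor per array (0.803 to 1.26), which set every array's mean to 260.6, with array medians of 93.6 to 121. Scanner and summary software are not given here. The number of arrays limits the precision.

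Processing used limma 3.58.1 (R 4.3.3) and its function neqc (normexp background from the detection p-values, offset 16, quantile normalisation, log2), with data.table (version 1.17.8) and statmod (version 1.5.0). Probe symbols came from the array's annotation (34885 probes with 1 symbol, 18 with several, 10378 with none), of which 34807 matched the RefSeq genes of GRCm38.p6 with 0 changes. Of 16254 probes passing the filter, 13842 had 1 symbol, and the probe with the highest mean stood for its gene. The ages were compared with lmFit and eBayes over all 9379 genes, with Benjamini-Hochberg adjustment and a threshold of 0.05. In data simulated on 9379 genes, with 100 changes of each size, 51% of changes of 0.5 and 96% of changes of 1.5 (log2) were recovered. There were 5 false calls. The simulated noise was independent between genes and had the same SD at both ages, unlike that of the arrays. These shares therefore need not hold for the comparison of the ages.

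Members, gene lists and tests were chosen with earlier results of these data known. Every measured member is named, and of each other pathway list the up to 4 genes with the smallest adjusted p. The main comparison did not treat same-numbered arrays as pairs. Their deviations correlated at -0.01 to 0.30, and the labels do not say whether a number marks a shared batch. No 2 arrays held identical values. Alternatives tried were other background and scaling, the authors' values, other detection filters, the mean of a gene's probes, a replicate block, array weights, the adipocyte markers as a covariate, and leaving out arrays.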

Additional observations from a re-analysis of the deposited data

Results flagged for a closer look

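Among the 27 measured genes, 54 groups of 6 arrays were examined for an array whose gap to its nearest neighbour, divided by the range of the group, exceeded Dixon's critical value for that size. Chance gives about 1 in 20 such groups. It was exceeded in 6, and each time the array set apart was 50-week array 6, which also had the lowest correlation with its own group. On that array Cyp51 was at 4.94, with the nearest array at 6.40, Scd2 was at 7.46, nearest 8.37, and Ebp was at 7.97, nearest 8.40. These 3 were the lowest of the 50-week group. The same array was the highest of its group for Scap at 7.83, nearest 7.20, for Elovl6 at 7.10, nearest 6.71, and for Scd1 at 11.34, nearest 11.02.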

How the results depend on the processing

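Insig1 kept its direction and stayed past the threshold under all 22 alternatives, with differences of -1.52 to -1.17. Over 1130 comparisons of 52 named genes with an alternative, 65 lost and 39 gained a call. The sign of the difference changed in 10, those of Insig2, Tm7sf2, Elovl5 and Coq2, with no call under either setting. With arrays scaled to the same median the mean difference was -0.06 for the members, -0.13 for the sterol members and 0.10 for the fatty acid members, against -0.19, -0.26 and -0.01, and on the authors' values it was -0.11, -0.17 and 0.04. The counts moved more. With arrays scaled to the same median, which shifted the median of all genes by 0.11, 272 genes changed (83.1% of them higher, against 50.9%), 0 members were higher, 1 was lower and 12 pairs with Insig1 passed, against 5. On the authors' values 61.1% of the changed genes were higher and 3 pairs passed, and with the mean of a gene's probes 2 passed. With no detection filter 0 members were higher and 1 lower, and with the adipocyte covariate 1 was lower. Array weights gave 2593 changed genes with 3 members higher and 4 lower. Leaving out both 8-week array 2 and 50-week array 6 gave 2527 genes, with 2 members higher and 8 lower. Leaving out 1 array gave 792 to 2317 genes (2317 without 50-week array 6), 0 to 3 members higher and 1 to 3 lower. The cause was not tested. With arrays numbered alike treated as pairs, the replicate number as a block gave 911 changed genes, with 0 members higher and 2 lower, Insig1 (adjusted p = 0.00492) and Cyp51 (0.0346), while Elovl6 was at 0.0603, Scd1 at 0.0548 and Faf2 at 0.0985; arrays numbered 3 and 4 correlated best with their own number, and the others did not. The slide as a block was not run, because the headers give no slides. Genes near background, among them Nsdhl, Tm7sf2, Stard4, Fasn and Fads2, have little signal to show a difference.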
